A study of Mus musculus with 7 samples.

Results

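The serotonin receptor genes of mouse hippocampus were described in 7 RNA-seq libraries. Their 10 members, Htr1a, Htr1b, Htr2a, Htr2c, Htr3a, Htr4, Htr5a, Htr5b, Htr6 and Htr7, were taken by symbol from the 55416 Ensembl gene identifiers of each count file, and all 10 were found. The animals were male CD1 mice of matched age, an outbred stock. Control mice received no injection (3 libraries, replicates 1, 2 and 3). DMSO-treated mice received the vehicle intraperitoneally (2 libraries, replicates 2 and 3), in the volume and on the schedule used for the inhibitor. ONX-0914-treated mice received 10 mg/kg of ONX-0914, an inhibitor of the immunoproteasome, 2 times a week for 2 months (2 libraries, replicates 1 and 2). No age in weeks was given, and which of the treated animals were sequenced, or whether any were pooled, is not stated, so p-values measure the spread between these libraries. The question was whether prolonged inhibition of non-constitutive proteasomes altered gene expression in the hippocampus, with DMSO as the measure of the vehicle.

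Serotonin reaches the hippocampus through axons of the raphe nuclei of the brainstem, so the tissue holds the receptors but few of the genes that make the transmitter. The receptors fall into classes by what they couple to. Htr1a, Htr1b, Htr5a and Htr5b code for receptors that act through Gi/o proteins, which lower cyclic AMP and open potassium channels. Htr2a and Htr2c act through Gq and phospholipase C. Htr4, Htr6 and Htr7 act through Gs, which raises cyclic AMP, and Htr3a codes for a subunit of an ion channel. Htr1a is known as the main postsynaptic serotonin receptor of hippocampal pyramidal and granule neurons.

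The total count on genes was 2842675 to 3877006 in 6 libraries and 13782270 in ONX-0914 replicate 2, and the receptors together received 336 to 606 counts in the first 6 and 1985 in the last. Levels are given as CPM, counts scaled to a common library size, here corrected by TMM, edgeR's adjustment for composition. A single count was worth 0.252 to 0.357 CPM in the 6 libraries and 0.0661 CPM in ONX-0914 replicate 2, so that low receptors were measured coarsely in all but 1 library. These limits, and the intervals below, cover counting error only.

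The 2 ONX-0914 libraries stood apart from the others and from each other before any receptor was considered. Marker genes chosen for other brain regions were summed per library (each list is given as the range over the 5 control and DMSO libraries, then ONX-0914 replicates 1 and 2). The 9 striatum markers gave 235 to 270 CPM, then 1388 and 206 CPM, and in replicate 1 all 9 lay above every control library. The 6 thalamus markers gave 62.8 to 82.1 CPM, then 799.6 and 74.3 CPM, again with all 6 above every control library in replicate 1. The 5 markers of CA1 pyramidal neurons gave 515 to 613 CPM, then 189.5 and 618 CPM, with all 5 below every control library in replicate 1, and 2 below and 3 above in replicate 2. The 3 blood markers gave 27.5 to 39.2 CPM, then 84.1 and 751 CPM, and the 3 endothelium markers 110 to 147 CPM, then 204 and 176 CPM, with all 3 of each list above every control library in both replicates. General interneuron markers gave 501 to 602 CPM, then 1265 and 572 CPM, with 4 of 5 above every control library in replicate 1. In replicate 2 mitochondrially encoded genes took 3.71% of the counts against 0.818% to 1.59%. Markers of the labelled tissue were present in all 7 libraries, with 37.0 to 107 CPM of Prox1, a gene of dentate granule cells, and 90.4 to 190.5 CPM of Wfs1, a gene of CA1. The part of these differences in the receptor levels was not tested. In bulk tissue, fewer cells of a type and less RNA per cell cannot be told apart.

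Levels of different receptors were compared per kilobase of exon, on the lengths of GENCODE M21. In control hippocampus, Htr1a was the most abundant receptor at 11.4 ± 0.976 CPM per kilobase (SD, n = 3). Htr7 followed at 3.86 ± 0.162 CPM per kilobase, and neither range overlapped that of the next receptor. Htr5a (2.53 ± 0.651), Htr1b (2.52 ± 0.341), Htr5b (2.10 ± 1.23), Htr4 (1.88 ± 0.663), Htr6 (1.78 ± 0.441), Htr2c (1.40 ± 0.541) and Htr2a (1.29 ± 0.168 CPM per kilobase) formed a run in which each neighbour overlapped the next. Htr3a was lowest at 0.912 ± 0.217 CPM per kilobase, below Htr2a in all 3 control libraries. The order depends on the length chosen for Htr2c, whose M21 exons span 9328 bases. On its longest coding transcript of 4883 bases Htr2c had 2.67 ± 1.03 CPM per kilobase and ranked 3, while Htr1a and Htr7 kept the first places. In DMSO-treated mice Htr1a again led, at 11.8 CPM per kilobase, ahead of Htr1b at 4 without overlap.

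In ONX-0914-treated mice the order by mean was different and again depended on the length of Htr2c. On the M21 exons Htr1b had 4.82, Htr1a 4.64, Htr7 4.48 and Htr2c 4.15 CPM per kilobase on average, and each of these overlapped its neighbour. On the longest coding transcript Htr2c had 7.92 CPM per kilobase on average and was first in both libraries, at 10.3 and 5.59 CPM per kilobase in replicates 1 and 2. On the M21 exons, Htr1a made up 35.8%, 40.0% and 39.2% of the summed receptor level per kilobase in control replicates 1, 2 and 3, and 42.3% and 39.3% in DMSO replicates 2 and 3. It made up 12.7% and 19.6% in ONX-0914 replicates 1 and 2. As a share of receptor counts, Htr1a held 67 of 606 in ONX-0914 replicate 1 (11.1%, Wilson 95% interval 8.80% to 13.8%) and 374 of 1985 in replicate 2 (18.8%, 17.2% to 20.6%). In control and DMSO libraries the share lay between 36.1% and 43.4%, and the lowest lower bound of these 5 intervals was 31.3%. The sum over the 10 receptors ranged from 28.1 to 30.9 CPM per kilobase in all 7 libraries, or 29.6 to 35.0 on the longest coding transcripts.

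**Figure D1:**
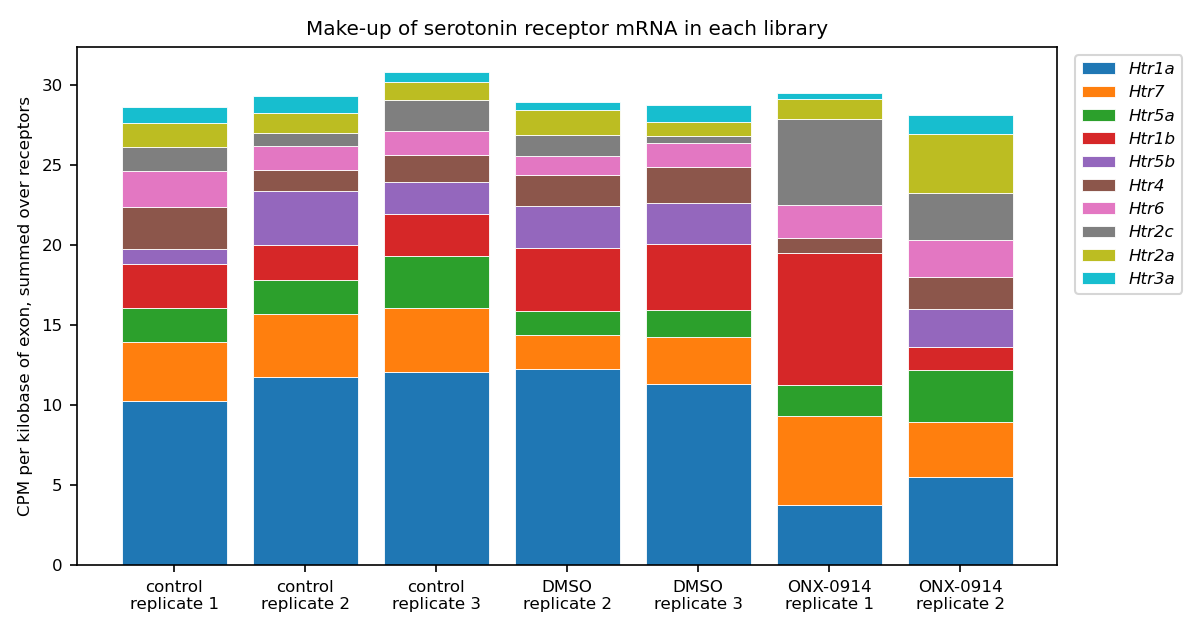
Stacked bars show the level of each receptor in CPM per kilobase of exon (vertical axis) in the 7 libraries (horizontal axis), 1 colour per gene. Htr1a is the largest segment in the 5 control and DMSO libraries (35.8% to 42.3% of the sum) and is 12.7% and 19.6% in the ONX-0914 libraries, while the height of the bars stays between 28.1 and 30.9.

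Of the 10 receptors, 9 passed the filter on low counts and were tested with edgeR's quasi-likelihood test in a single model over all 7 libraries. Htr3a did not pass. None of the 9 was a DEG (FDR under 0.05) in any of the 3 comparisons. The background was low as well. Over the 13152 genes of the fit, the share of DEG was 0.114% for ONX-0914 against control, 0.0456% for ONX-0914 against DMSO and 0.0152% for DMSO against control. At an unadjusted p under 0.05, there were 2 of 9 receptors for ONX-0914 against control (Htr1a and Htr2c, background 18.6%), 3 of 9 for ONX-0914 against DMSO (Htr1a, Htr2c and Htr7, background 14.7%) and 0 of 9 for DMSO against control (background 2.65%). With the control and DMSO libraries fitted alone, the latter count was 3 of 9 (Htr1b, Htr5a and Htr7, background 15%), and 141 of 12688 genes were DEG in place of 2 of 13152, with 131 without ONX-0914 replicate 1 and 146 without replicate 2. DESeq2 called 1 receptor (Htr1a) against control, where it called 2.95% of all genes, and 2 (Htr1a and Htr2c) against DMSO, where it called 1.81%. Each group serves 2 of the comparisons, so the counts are not independent.

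**Figure D2:**
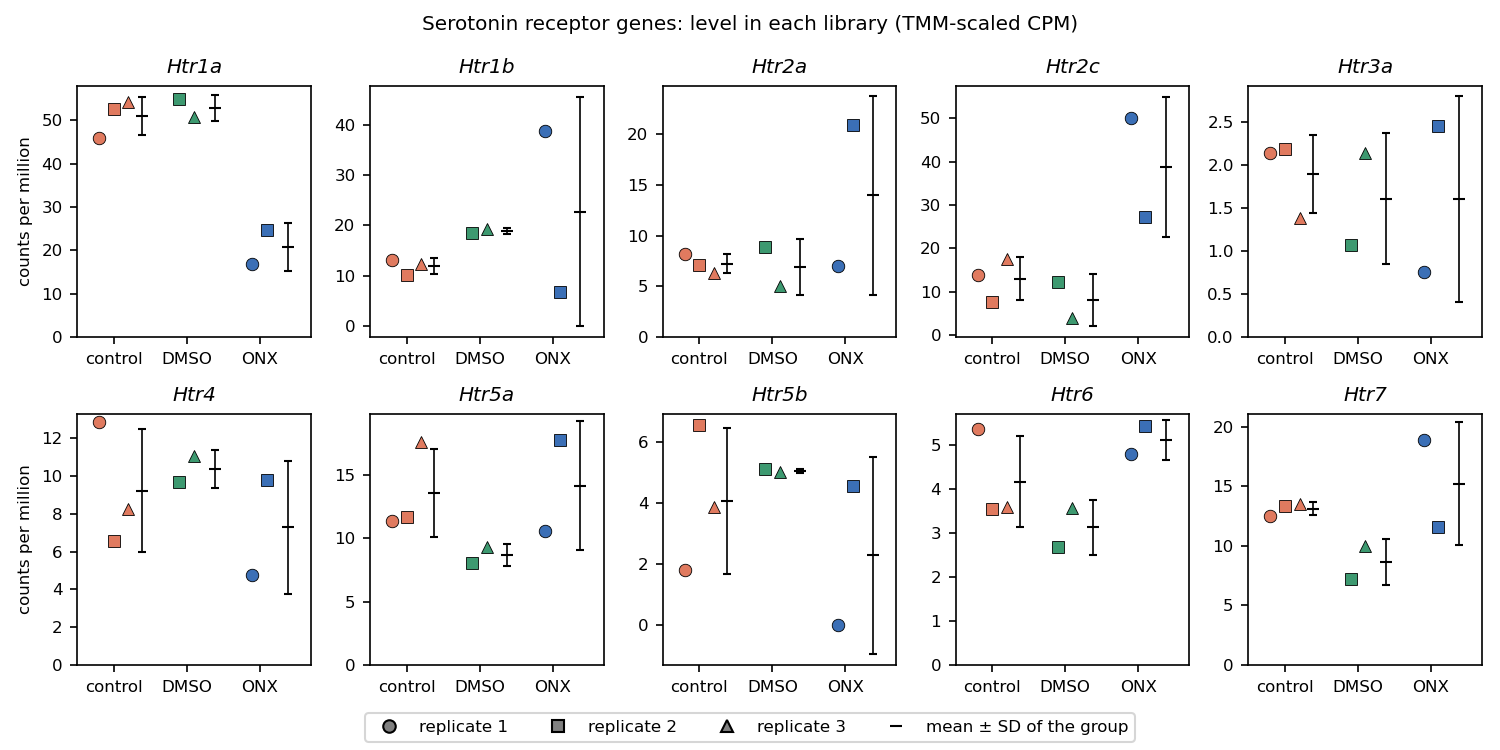
Each panel shows 1 receptor gene, with its level in CPM (vertical axis, scale set per gene) in each library (points, shaped by replicate number) of the control, DMSO and ONX-0914 groups (horizontal axis). Black bars give the mean ± SD of the group, n = 3, 2 and 2, and may reach below 0. Htr1a lies lowest and Htr2c highest in both ONX-0914 libraries, and Htr1b and Htr2a are each high in 1 of the 2.

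Among the Gi/o-coupled receptors, Htr1a (ENSMUSG00000021721) had its lowest levels in the ONX-0914 libraries. Its level was 46.0, 52.6 and 54.2 CPM in control replicates 1, 2 and 3, 55.0 and 50.7 CPM in DMSO replicates 2 and 3, and 16.9 and 24.7 CPM in ONX-0914 replicates 1 and 2. The control and DMSO values ran into each other, and the ONX-0914 values lay at 0.331 and 0.485 times the control mean. The means were 50.9 ± 4.37 CPM (SD, n = 3), 52.8 ± 3.05 CPM (SD, n = 2) and 20.8 ± 5.55 CPM (SD, n = 2). Against control the Log2FC was −1.27 with a standard error of 0.217 (edgeR, FDR = 0.0728). Against DMSO it was −1.32 (standard error 0.233, FDR = 0.101, edgeR), and for DMSO against control it was 0.05 (standard error 0.209, FDR = 1, edgeR). By p-value Htr1a stood at place 61 and 52 of the 13152 genes in the ONX-0914 comparisons, and it missed the FDR threshold in both. Being below all control libraries was common, at 16.3% of genes, as was being below both DMSO libraries, at 19.7%, and 11.3% of genes were below all 5.

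The lower level of Htr1a was present in each ONX-0914 library on its own. Without ONX-0914 replicate 1 the Log2FC against control was −1.06 (standard error 0.160, FDR = 1.48e-05, edgeR), and without replicate 2 it was −1.60 (standard error 0.212, FDR = 5.13e-06, edgeR). In these fits the lone ONX-0914 library was assumed to vary like the other groups, and 7023 of 13713 (51.2%) and 2594 of 13635 genes (19.0%) were called against control, and 46.0% and 17% against DMSO. The summed CA1 markers were at 0.350 times the control mean in replicate 1 and at 1.14 times in replicate 2. Dentate granule markers were at 0.451 and 0.919 times, and CA3 markers at 0.472 and 0.868 times. The single genes of these lists differed in replicate 2, in which 3 CA1 markers lay above every control library and 2 below. The latter were Fibcd1, with 122 to 154 CPM in control and 68.7 CPM there, and Pou3f1, with 138 to 170 and 87.0 CPM. Of the 4 CA3 markers 2 lay below every control library there and 1 above, and of the 5 dentate granule markers 3 lay below and 1 above. The part of these cell types in the level of Htr1a was not tested.

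The 250 bases upstream of the annotated start are shown for Htr1a and Htr2c, chosen by their levels under ONX-0914. Htr1a was below all 5 other libraries in both ONX-0914 replicates, and Htr2c was above them in both. No other receptor differed from all 5 in a single direction. The bases shown are RefSeq sequences of GRCm38.p6, a build other than that of the counts, at chr13:105443443-105443692 and chrX:146962263-146962512, both on the plus strand. Capitals mark matches to the motifs searched.
Htr1a: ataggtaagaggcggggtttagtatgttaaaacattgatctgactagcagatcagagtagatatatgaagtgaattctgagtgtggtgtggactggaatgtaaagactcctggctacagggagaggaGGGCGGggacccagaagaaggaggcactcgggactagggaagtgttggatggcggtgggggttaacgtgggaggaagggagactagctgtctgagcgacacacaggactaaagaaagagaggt
Htr2c: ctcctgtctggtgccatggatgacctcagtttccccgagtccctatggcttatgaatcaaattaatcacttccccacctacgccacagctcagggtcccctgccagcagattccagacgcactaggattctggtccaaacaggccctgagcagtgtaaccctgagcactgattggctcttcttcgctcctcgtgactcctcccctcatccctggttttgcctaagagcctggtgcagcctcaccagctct
The motifs were the GC box GGGCGG, the E-box CACGTG, the cyclic AMP response element TGACGTCA and the TATA box TATAAA, sought on both strands. Htr1a held 1 GC box, 123 bases before the start, and Htr2c held none of the 4 motifs. In 32851 windows of the same length, 32.7% held the GC box, 6.02% the E-box, 1.55% the response element and 12.4% the TATA box. Windows were used for 7 of the 10 receptors, of which Htr2a held 1 GC box and Htr6 held 3. A match is a description of the letters, and its absence says nothing about binding.

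Htr1b (ENSMUSG00000049511), a receptor of axon terminals that reduces transmitter release, differed in opposite directions between the ONX-0914 libraries. Its level was 13.2, 10.1 and 12.4 CPM in control, 18.5 and 19.3 CPM in DMSO, and 38.8 and 6.74 CPM in ONX-0914 replicates 1 and 2. Replicate 1 was thus the highest and replicate 2 the lowest of all 7. Their ratio was 5.75 (exact 95% interval for counting error 4.45 to 7.46), whereas the highest and lowest control libraries differed 1.31-fold and the DMSO libraries 1.04-fold. The Log2FC against control was 0.86 (standard error 0.613, FDR = 0.462, edgeR). It was −0.81 (FDR = 0.0085, edgeR) without replicate 1 and 1.71 (FDR = 3.41e-06, edgeR) without replicate 2. Against DMSO it was 0.19 (FDR = 0.899, edgeR), −1.49 without replicate 1 and 1.03 without replicate 2. Striatum markers stood at 5.36 times and thalamus markers at 11.4 times the control mean in replicate 1, the library with the high Htr1b level, and at 0.797 and 1.06 times in replicate 2. Whether these tissues had a part in the level of Htr1b was not tested. Both DMSO libraries lay above all control libraries (background 15.7%), and the Log2FC was 0.67 ± 0.633 (standard error; edgeR, FDR = 1). An antisense gene, D430036J16Rik, overlaps the exons of Htr1b and had 0 counts in 6 libraries and 2 in ONX-0914 replicate 2.

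The other Gi/o-coupled receptors, Htr5a and Htr5b, had overlapping levels in control and ONX-0914 libraries. Htr5a had 11.4, 11.7 and 17.6 CPM in control, 8.05 and 9.28 CPM in DMSO and 10.6 and 17.8 CPM in ONX-0914. The DMSO libraries lay below all others, and the control and ONX-0914 ranges overlapped. Its Log2FC was 0.09 (standard error 0.310, FDR = 0.888, edgeR) for ONX-0914 against control, 0.75 (standard error 0.361, FDR = 0.365, edgeR) against DMSO (1.04 with FDR = 0.00361 without ONX-0914 replicate 1, and 0.29 without replicate 2), and −0.66 (standard error 0.349, FDR = 1, edgeR) for DMSO against control. Htr5b, a gene that codes for a receptor in rodents, had 5, 24 and 14 counts in control, 19 and 14 in DMSO, and 0 and 69 in ONX-0914, or 1.78, 6.54 and 3.85 CPM, 5.10 and 5.0 CPM, and 0 and 4.56 CPM. The 0 counts of replicate 1 allow a level of up to 0.755 CPM (3 counts), which is below every other library, and replicate 2 lay within the control range. Both ONX-0914 libraries were below both DMSO libraries. The Log2FC against control was −0.49 (standard error 0.812, FDR = 0.76, edgeR). It was 0.094 without replicate 1 and −6.88 without replicate 2, where the value meets 0 counts and depends on the prior count.

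Of the Gq-coupled receptors, Htr2c (ENSMUSG00000041380) was higher in both ONX-0914 libraries than in every other library. Htr2c is abundant in the choroid plexus, and its transcript is edited by the enzymes that Adar and Adarb1 code for. Its level was 13.9, 7.63 and 17.6 CPM in control, 12.3 and 3.93 CPM in DMSO, and 50.1 and 27.3 CPM in ONX-0914 replicates 1 and 2. The control libraries differed 2.31-fold and the DMSO libraries 3.14-fold, more than any other receptor except Htr5b in control. The means were 13.05 ± 5.05 CPM (SD, n = 3), 8.13 ± 5.95 CPM (SD, n = 2) and 38.7 ± 16.1 CPM (SD, n = 2). The Log2FC was 1.55 (standard error 0.467, FDR = 0.161, edgeR) against control, 2.18 (standard error 0.554, FDR = 0.18, edgeR) against DMSO, and −0.63 (standard error 0.540, FDR = 1, edgeR) for DMSO against control. The last value depends on which DMSO library is kept, being −1.73 without DMSO replicate 2 and −0.08 without DMSO replicate 3. None passed the threshold. Lying above all control libraries held for 16.9% of genes, above both DMSO libraries for 20.8% and above all 5 for 11.4%.

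Without ONX-0914 replicate 1 the Log2FC of Htr2c against control was 1.06 (FDR = 0.00299, edgeR) and without replicate 2 it was 1.94 (FDR = 2.57e-05, edgeR), in the same fits with many calls. The 7 choroid plexus markers differed among themselves. They summed to 190, 54.0 and 40.5 CPM in control, 116 and 53.5 CPM in DMSO, and 75.0 and 187 CPM in ONX-0914 replicates 1 and 2. Ttr, the most abundant gene of that list, had 160, 34.9 and 23.1 CPM in control, 91.2 and 32.1 CPM in DMSO and 50.6 and 157 CPM in ONX-0914. Of the 7, Otx2 and Clic6 lay above every control library in replicate 1, at 11.6 and 10.3 CPM against 0.551 to 2.14 and 3.31 to 7.13 CPM in control, and 2 lay below. In replicate 2, 3 lay above and 0 below. Kcnj13 had 0 counts in all control libraries and in ONX-0914 replicate 1. The highest Htr2c level was in replicate 1, where 9 of 9 striatum and 6 of 6 thalamus markers lay above all control libraries. Of the striatum markers, 4 lay above and 2 below in replicate 2, and of the thalamus markers 3 above and 2 below. The part of these tissues in the level of Htr2c was not tested.

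Htr2a, the other receptor of this class and the main target of classical psychedelics, was high in ONX-0914 replicate 2 alone. Its level was 8.20, 7.09 and 6.33 CPM in control, 8.85 and 5.0 CPM in DMSO, and 7.05 and 20.9 CPM in ONX-0914. Replicate 2 was 2.96 times replicate 1 (exact 95% interval for counting error 2.01 to 4.53), and replicate 1 lay within the control range. The Log2FC against control was 1.03 (FDR = 0.27, edgeR) and −0.02 (FDR = 0.979, edgeR) without replicate 2, so it rests on that library. The 6 neocortex markers summed to 217 to 289 CPM in the 5 control and DMSO libraries, and to 204 and 341 CPM in ONX-0914 replicates 1 and 2. Of these 6, 2 lay above and 4 below every control library in replicate 1, and 4 above and 1 below in replicate 2. Whether neocortex had a part in the level of Htr2a was not tested.

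**Figure D3:**
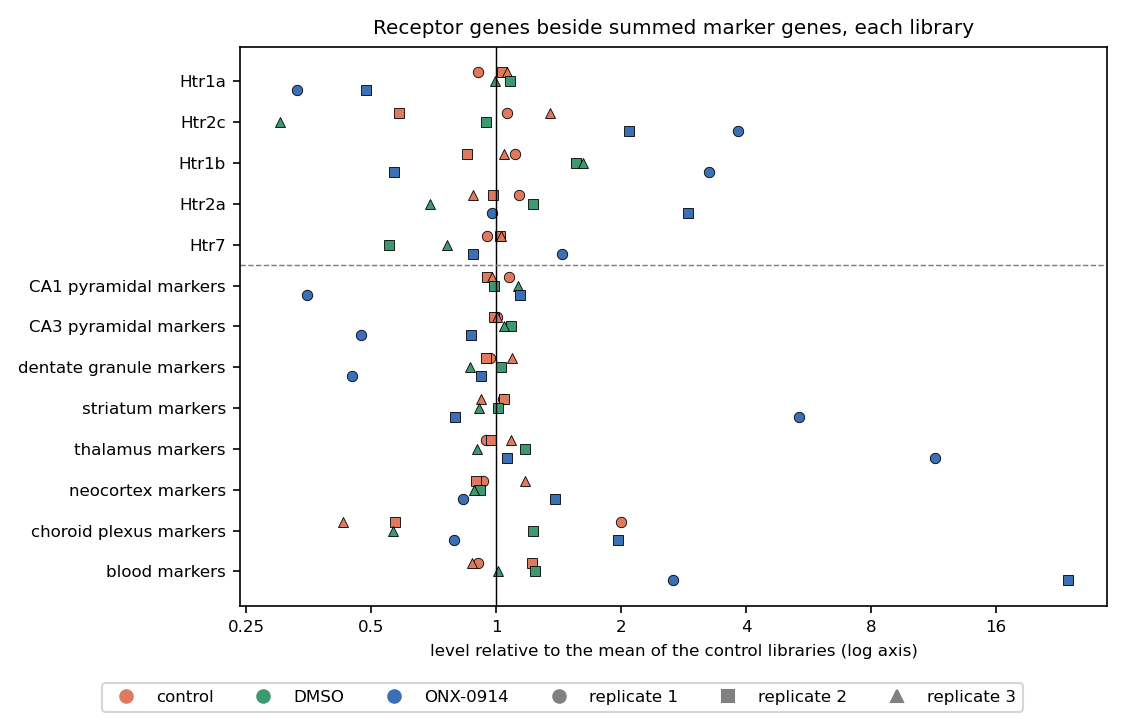
Each point is the level of a receptor gene (upper rows) or of a summed marker list (lower rows) in 1 library, relative to the control mean on a log axis, coloured by group and shaped by replicate. Htr1a is low in both ONX-0914 libraries (0.331 and 0.485). CA1 markers sum to 0.350 in replicate 1 and 1.14 in replicate 2 (with 2 of the 5 genes below every control library there). The sums of the thalamus and striatum markers are high in replicate 1 alone.

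Of the Gs-coupled receptors, Htr7 had 12.5, 13.4 and 13.5 CPM in control, 7.24 and 9.99 CPM in DMSO, and 18.9 and 11.6 CPM in ONX-0914. The ONX-0914 libraries lay on either side of the narrow control range, and the DMSO libraries lay below all others. Its Log2FC was 0.18 (standard error 0.285, FDR = 0.752, edgeR) for ONX-0914 against control, 0.80 (standard error 0.330, FDR = 0.325, edgeR) against DMSO (0.44 without ONX-0914 replicate 1, and 1.15 with FDR = 0.00897 without replicate 2), and −0.62 (standard error 0.317, FDR = 1, edgeR) for DMSO against control. Htr6 ranged from 3.54 to 5.35 CPM in control mice, with 2.68 and 3.57 CPM in DMSO and 4.78 and 5.42 CPM in ONX-0914. Its ratio between the ONX-0914 libraries, 0.883 (exact 95% interval for counting error 0.506 to 1.47), covered 1, and its Log2FC against control was 0.33 (standard error 0.347, FDR = 0.619, edgeR). Htr4 had 12.8, 6.54 and 8.26 CPM in control, 9.66 and 11.1 CPM in DMSO and 4.78 and 9.78 CPM in ONX-0914, and its Log2FC was −0.24 ± 0.39 (standard error; edgeR, FDR = 0.759). Its groups overlapped.

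Htr3a, the channel subunit found in interneurons that arise in the caudal ganglionic eminence, had 6, 8 and 5 counts in control, 4 and 6 in DMSO, and 3 and 37 in ONX-0914, or 1.38 to 2.18, 1.07 and 2.14, and 0.755 and 2.45 CPM. The ONX-0914 libraries held the lowest and the highest level, and replicate 1 over replicate 2 gave a ratio of 0.309 (exact 95% interval for counting error 0.0609 to 0.975). The 6 markers of those interneurons summed to 317 to 435 CPM in the control and DMSO libraries and to 409 and 257 CPM in ONX-0914 replicates 1 and 2. In replicate 2 the single markers went both ways, with 2 above and 3 below every control library, and in replicate 1 as many above and 2 below. Whether those interneurons had a part in the level of Htr3a was not tested.

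For the vehicle, DMSO libraries lay below all control libraries in 2 of 9 receptors (Htr5a and Htr7, background 15%) and above in 1 (Htr1b, noted with its background above). For ONX-0914 against DMSO, 2 receptors lay below (Htr1a and Htr5b) and 4 above (Htr2c, Htr5a, Htr6 and Htr7), beside the backgrounds of 19.7% and 20.8%. Scaled by total counts alone, 5 rather than 6 did not overlap. For ONX-0914 against control, 1 of 9 lay below (Htr1a, background 16.3%) and 1 above (Htr2c, background 16.9%). In 3 of the 4 that lay above DMSO, the ONX-0914 range overlapped that of control, and 2 of these, Htr5a and Htr7, had DMSO values below all control values. The median Log2FC of the 9 receptors was 0.18 for ONX-0914 against control (0.05 over all genes tested), 0.74 against DMSO (0.05 over all genes) and −0.02 for DMSO against control (0.00 over all genes).

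**Figure D4:**
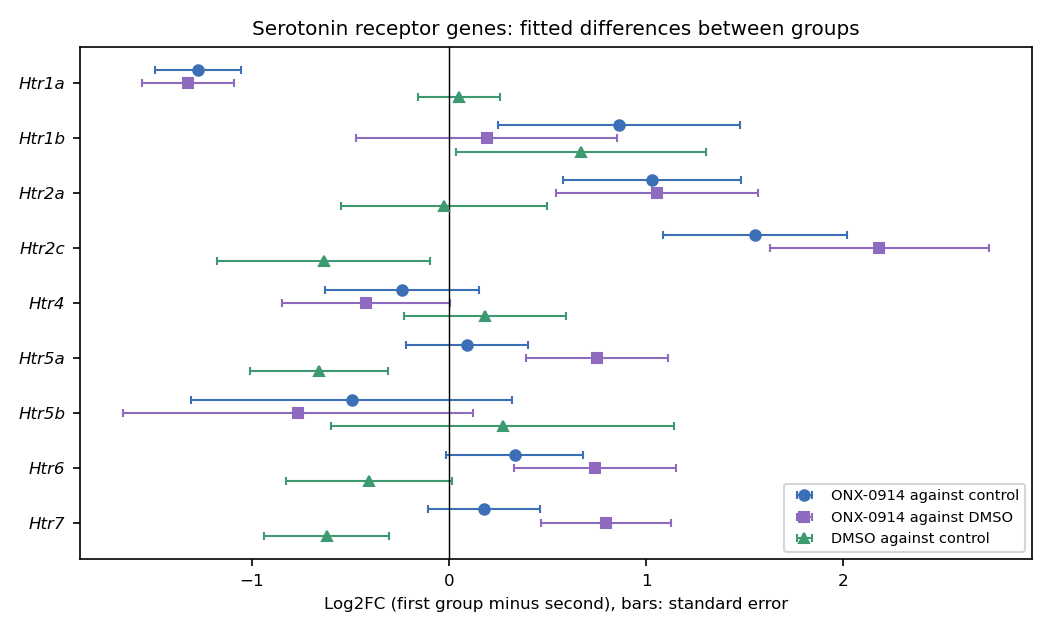
Points give the Log2FC of the 9 tested receptors (vertical axis) in 3 comparisons (colours), the first group minus the second, and bars the standard error. Htr1a lies at −1.27 and −1.32 and Htr2c at 1.55 and 2.18 in the ONX-0914 comparisons, and no receptor reached an FDR of 0.05.

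Of the 4 other serotonin receptor genes, only Htr1f was tested, at 1.38 to 3.27 CPM in control, 2.68 and 5.71 CPM in DMSO and 3.52 and 2.45 CPM in ONX-0914. Htr1d had 12 counts in ONX-0914 replicate 1 and at most 3 in any other library, and Htr2b and Htr3b had at most 2. Of the 12 genes for the synthesis, packaging, uptake and breakdown of serotonin, 6 were tested. None of them was called by edgeR in any comparison. Over all genes the share called was 0.114% for ONX-0914 against control, 0.0456% for ONX-0914 against DMSO and 0.0152% for DMSO against control. Fev, the transcription factor that defines serotonin neurons, had 0 counts in all 7 libraries, and Tph2, the enzyme of neuronal serotonin synthesis, had 0 to 22 counts (at most 1.45 CPM). Slc6a4, the serotonin transporter, had at most 7 counts, and Tph1, Gch1 and Slc22a3 also did not pass the filter. Slc18a2, the vesicular monoamine transporter, ranged from 3.57 to 4.09 CPM in control mice, with 2.68 and 2.50 CPM in DMSO and 5.54 and 7.40 CPM in ONX-0914, and its Log2FC was 0.78 ± 0.320 (standard error; edgeR, FDR = 0.244). Ddc, which makes serotonin from its precursor, had 17.1 to 24.2 CPM in the 5 control and DMSO libraries and 48.6 and 3.24 CPM in ONX-0914 replicates 1 and 2. Qdpr, which regenerates the cofactor of the synthesis, had 292 to 408 CPM in those 5 and 524 and 96.8 CPM. Both thus took opposite directions in the ONX-0914 libraries, as Htr1b did. Slc29a4, a low-affinity transporter, took the reverse directions, with 10.4 to 16.9 CPM in those 5 and 6.04 and 22.3 CPM. Of the monoamine oxidases, Maoa had 22.5 to 30.0 CPM in those 5 libraries and 33.7 and 35.7 CPM in ONX-0914, above all 5, with a Log2FC against control of 0.32 (FDR = 0.403, edgeR). Maob had 26.4 to 35.4 CPM in those 5 and 34.7 and 17.6 CPM in ONX-0914.

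Among the 32 genes of receptor partners and of Gi/o, Gq and Gs signalling, edgeR called none, beside 0.114% of all genes against control. Against control, at an unadjusted p under 0.05, 2 of 9 Gi/o genes were lower and 0 higher, 1 of 6 Gq genes was higher, 1 of 8 Gs genes was lower and 1 higher, and of 9 partners 1 was lower and 1 higher, beside 18.6% of all genes in either direction. Kcnj3, a subunit of the potassium channel that Htr1a opens, had 292, 253 and 292 CPM in control, 264 and 235 CPM in DMSO and 151 and 149 CPM in ONX-0914. Both ONX-0914 libraries lay below all others, at a Log2FC of −0.90 (standard error 0.166, FDR = 0.0742, edgeR). Gnai1, a subunit of Gi, had a Log2FC of −0.51 (FDR = 0.23, edgeR). Adcy2, an adenylyl cyclase, ranged from 288 to 296 CPM in control mice, with 302 and 313 CPM in DMSO and 149 and 171 CPM in ONX-0914, at a Log2FC of −0.87 (standard error 0.160, FDR = 0.0742, edgeR). Plcb4, a phospholipase C, ranged from 11.1 to 14.9 CPM in control mice, with 13.95 and 10.4 CPM in DMSO and 111 and 27.4 CPM in ONX-0914, at a Log2FC of 2.40 (standard error 0.513, FDR = 0.1, edgeR). Adarb1, an RNA-editing enzyme that acts on the Htr2c transcript, ranged from 146 to 164 CPM in control mice, with 131 and 127 CPM in DMSO and 547 and 224 CPM in ONX-0914, at a Log2FC of 1.33 (standard error 0.320, FDR = 0.121, edgeR). Adcy8 had a Log2FC of 0.99 (FDR = 0.237, edgeR) with 69.7 and 26.8 CPM under ONX-0914, the latter within the control range. Dlg4, a postsynaptic scaffold, had a Log2FC of −0.48 (FDR = 0.234, edgeR). In Plcb4, Adarb1 and Adcy8 the higher level was in replicate 1, in which striatum and thalamus markers were high. Plcb4 and Adarb1 also lay above every control library in replicate 2. There the striatum and thalamus markers summed to 0.797 and 1.06 times the control mean. Whether these tissues had a part in the levels of Plcb4, Adarb1 and Adcy8 was not tested.

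By likeness of profile over the 7 libraries (Pearson's r of log2 CPM across genes tested, as a description), the genes nearest to Htr1a were Nptx1 (r = 0.996), Orai2 (r = 0.995) and Opcml (r = 0.993). Those nearest to Htr2c were Fhod3 (r = 0.992), Coch (r = 0.991) and Pcdh10 (r = 0.990). Anxa5 (r = 0.990) was nearest to Htr1b and Grm3 (r = 0.993) to Htr2a. These r are among the 3 highest of 13152 genes for each receptor, over 7 libraries of which 2 stand apart from the rest. Between receptors, r was −0.80 for Htr1a with Htr2c and −0.59 for Htr1b with Htr2a, over the same libraries.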

How the data were processed

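RNA-seq of hippocampus was described from 7 libraries. Directional libraries were sequenced as single-end reads of 100 bases, and the authors deposited raw whole-number counts of reads per gene, 1 file per library. The submitters' processing notes name Trimmomatic 0.39, STAR 2.7.3a, featureCounts 2.00 and the build GRCm39, while their settings, the annotation and the strand setting are not given in the sources used here. Reads on no gene (4.75% to 6.49%) or ambiguous (3.75% to 3.92%) were left out. Symbols came from GENCODE M21 (52083 of 55416 identifiers, 99.821% of counts). The longest exact run shared by transcripts of 2 receptors was 26 bases (Htr2a and Htr2c).

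The analysis ran in R 4.3.3 and edgeR 4.0.16. The filter was filterByExpr, library sizes were scaled by TMM (factors 0.965 to 1.10), and glmQLFit in its newer form and glmQLFTest were applied with 1 mean per group over all 7 libraries, so that all groups shared the spread. FDR is the Benjamini–Hochberg value over 13152 genes, with a threshold of 0.05. The standard error of a Log2FC was derived from its F statistic. The study's methods name this test and refer to an earlier protocol, not used here, for details. The steps were tested on simulated counts that gave a gene the same spread in every group, which the ONX-0914 libraries did not have here. The check was on the median Log2FC and not on the FDR. Profiles were compared on log2 CPM (prior count 2). Exact and Wilson intervals were computed with SciPy 1.17.1.

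All 10 receptors are named. From each pathway list, genes with an unadjusted p under 0.05 against control (at most 4 per list) and all detected genes of serotonin supply are named. The members and all lists were chosen with earlier results of these data known. Alternatives were DESeq2 1.42.0, limma voom (limma 3.58.1), RLE size factors, total counts, no filter, at least 10 counts in every library, the compared groups alone, the replicate number as a block, the mean of the 5 libraries without ONX-0914 as control, and leaving out each library in turn. The earlier form of the quasi-likelihood fit and the removal of mitochondrial genes were added after seeing the data.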

Additional observations from a re-analysis of the deposited data

How the results depend on the processing

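The number of receptors called against control was 0 with edgeR's quasi-likelihood test and 1 with DESeq2 (Htr1a, with 388 of 13152 genes called). It was 2 without a filter on low counts (Htr1a and Htr2c, in a fit that called 578 of 26822 genes). With the mean of the 5 libraries without ONX-0914 as control it was 1 (Htr1a, in a fit that called 136 of 13152 genes). It ranged from 0 to 4 when libraries were left out in turn, with 4 without either ONX-0914 library, in fits that called 51.2% and 19.0% of all genes. Against DMSO it was 0, 2 with DESeq2 and 2 without the filter (Htr1a and Htr2c both times), and 0 to 5 when libraries were left out, with 5 without either ONX-0914 library, in fits that called 46.0% and 17% of all genes. For DMSO against control it was 0 in every alternative run, although 3 receptors in place of 0 had an unadjusted p under 0.05 with the compared groups alone, and 141 genes in place of 2 were called there (131 and 146 without ONX-0914 replicates 1 and 2). Over the 13152 genes of the filtered fits, DESeq2 called 388 against control in place of 15, and 238 against DMSO in place of 6. The unfiltered fit covered 26822 genes and called 578 against control and 297 against DMSO. The cause of these differences was not tested. The Log2FC of Htr1a kept its sign in all 18 alternatives against control (−1.60 to −1.06) and all 17 against DMSO (−1.65 to −1.11), and that of Htr2c likewise (1.06 to 1.94 and 1.62 to 3.27). The FDR of Htr1a against control ranged from 5.13e-06 to 0.371, the latter without control replicate 2.

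Signs changed as follows when libraries were left out. Against control, the Log2FC ranged from −0.81 to 1.71 for Htr1b, −0.021 to 1.54 for Htr2a, −0.90 to 0.12 for Htr4, −0.38 to 0.36 for Htr5a, −0.20 to 0.52 for Htr7 and −6.88 to 0.094 for Htr5b, whose lowest value meets 0 counts and depends on the prior count. Against DMSO it ranged from −1.49 to 1.03 for Htr1b and −0.028 to 1.54 for Htr2a. For DMSO against control it ranged from −0.016 to 0.11 for Htr1a, −0.52 to 0.30 for Htr2a, −0.018 to 0.48 for Htr4 and −0.043 to 0.80 for Htr5b. Htr2a turned to 0.006 with the compared groups alone, and Htr1b against DMSO to −0.58 with limma voom. Total counts in place of TMM moved the median Log2FC of all genes from 0.05 to 0.19 in both ONX-0914 comparisons.

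With the replicate number as a block (replicate block), 0 receptors were called in each comparison. The Log2FC of Htr1b against DMSO turned to −0.66, and for DMSO against control those of Htr1a and Htr5b turned to −0.059 and −0.19. For same-numbered libraries of different groups, the deviations from the group means correlated between −0.096 and 0.064 over 13152 genes. In a group of 2 libraries these deviations are equal and opposite. The 2 libraries then have r of equal size and opposite sign with any other library. The values therefore cannot show whether the numbers mark a pairing.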
